A study of Gallus gallus with 21 samples.

Results

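Cadherins, protocadherins, contactins and contactin-associated proteins were followed in the chicken retina over 1, 3 and 6 days of lens wear. The set was defined by gene symbol alone, with earlier results of these data known. It took every listed gene whose symbol began with CDH or CNTN and a digit, or with PCDH or CNTNAP, which gave 55 of 18631 genes. The birds were wild-type White Leghorn chicks fitted at 3 days of age with a lens of -10 dioptres, which puts the image plane behind the retina and makes a young eye elongate (lens-induced myopia). Each duration was represented by 7 RNA libraries, 21 in all, made from total RNA of the retina after removal of ribosomal RNA. All groups wore the lens, so durations were compared with each other, and the effect of lens wear cannot be told apart from that of age. The labels do not state whether the libraries of one duration were taken from different birds, and p-values therefore measure only the spread between these libraries. Lens power, strain and genotype were shared by all groups.

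Classical cadherins are calcium-dependent receptors that bind partners on the facing cell and are tied to the actin cytoskeleton by catenins. Type I members such as N-cadherin hold epithelial and neural tissue together, while type II members mark subsets of neurons. Delta protocadherins are single-gene relatives of the cadherins with long cytoplasmic tails. Clustered protocadherins are transcribed from alternative promoters in a tandem array and give neurons individual surface identities. Contactins are immunoglobulin-type proteins held in the membrane by a lipid anchor. They pair in the membrane with contactin-associated proteins, which belong to the neurexin superfamily. In the chick, contactins and the related sidekick and DSCAM proteins mark sublayers of the inner plexiform layer, where retinal interneurons and ganglion cells form synapses.

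Levels are given in CPM, reads of a gene scaled to the total reads of its library. Libraries held an estimated 30.8 to 49.3 M reads, of which 9.94 to 15.3 M fell on listed genes. Differences are given on the scale of log2(CPM + 1) with their standard error (SE). They come from limma fitted to all tested genes, and Benjamini-Hochberg adjusted p-values were held against 0.05. The tests covered the 11072 genes whose mean reached 1 CPM, among them 44 of the 55 adhesion genes. Photoreceptor genes marked the tissue as retina, with 7 cone markers summing to 596 to 1203 CPM. The 6 pigment epithelium markers summed to 1.34 to 8.03 CPM and the 6 connective tissue markers to 0.852 to 4.85 CPM. The W chromosome is carried by hens. By its gene HINTW, 10 libraries held W transcripts (101 to 147 CPM) and 11 did not (0.0243 to 0.598 CPM). Among the 7 libraries of each duration, 4 held them on day 1, 1 did on day 3 and 5 did on day 6, so W state and day were partly mixed.

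The summed level of the 55 genes barely moved, with medians of 2114 CPM on day 1, 2085 CPM on day 3 and 2084 CPM on day 6. Among the 44 tested members, 9 differed over the 3 days by limma's F test, against a background of 29.7% of all tested genes. They were CNTNAP2, CDH18, CNTNAP4, PCDHAC2, PCDH10, CNTN4, PCDH20, CDH12 and PCDH17. From day 1 to day 3, 1 member rose and 0 fell, where 3.31% of all genes were called, 1.67% higher and 1.63% lower, and 9 members had an unadjusted p under 0.05, as did 18% of all genes. From day 3 to day 6, 4 rose and 4 fell, where 22.8% of all genes were called, 19.4% higher and 3.44% lower. From day 1 to day 6, 3 rose and 4 fell, where 24.3% of all genes were called, 19.8% higher and 4.46% lower. The median change of the tested members from day 1 to day 6 was -0.02, beside 0.08 for all tested genes. In each called change between days all 7 libraries of the later day lay beyond the mean of the earlier day. This does not set the called changes apart, since it also held for some that were not called. Examples were CNTN1 from day 3 to day 6 (adjusted p = 0.347) and CDH9 from day 1 to day 6 (adjusted p = 0.261).

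**Figure D1:**
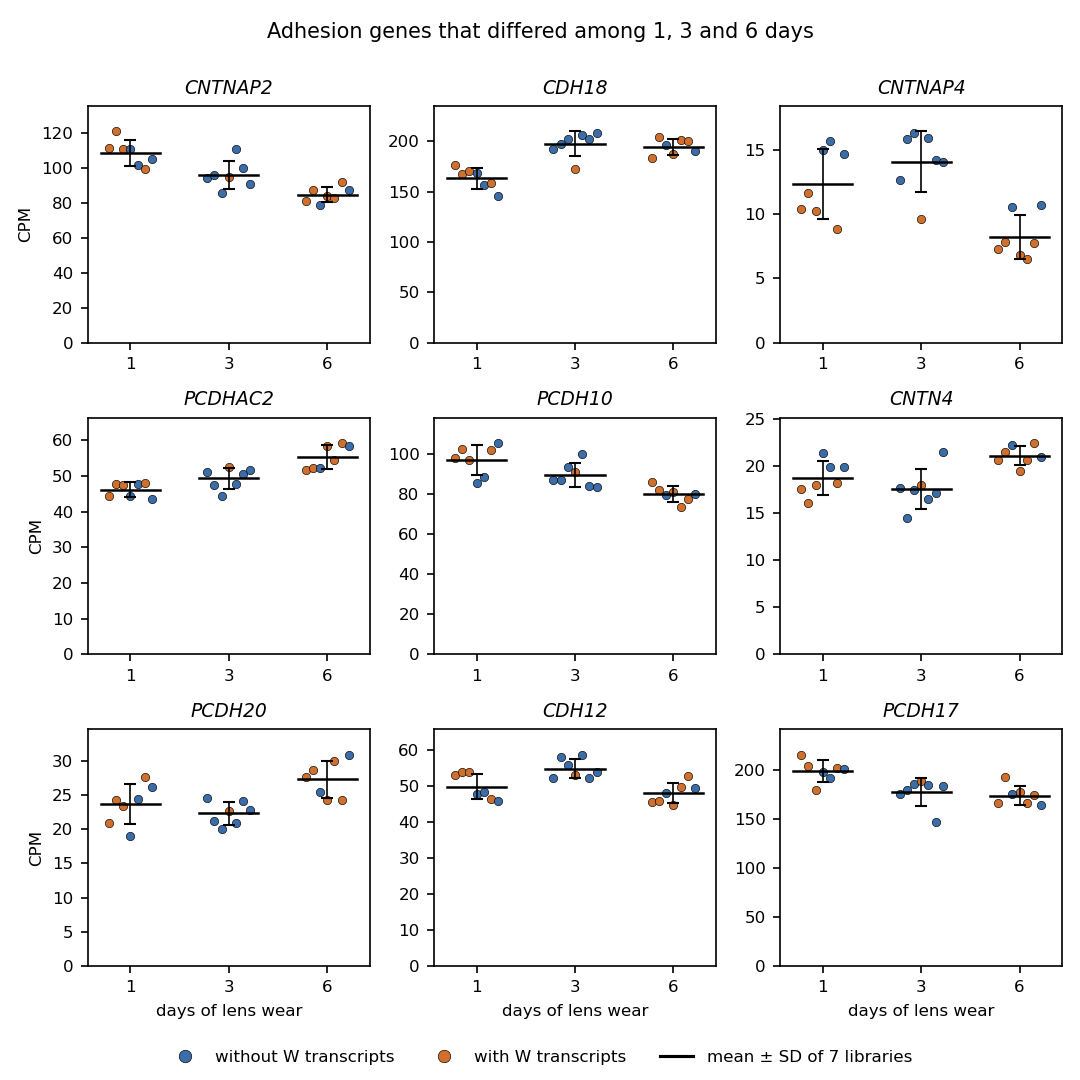
CPM of the 9 adhesion genes that differed over the 3 days, by days of lens wear, with 1 point per library (blue without W transcripts, orange with W transcripts) and bars for the mean ± SD of 7 libraries. CNTNAP2 and PCDH10 step down over the days, CDH18 steps up between day 1 and day 3, and CNTNAP4 splits by W transcripts within each day.

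The contactin-associated proteins CNTNAP4 and CNTNAP2 had the lowest estimates of the tested members from day 1 to day 6, next to PCDHB15, which was not called (-0.35, adjusted p = 0.168). All 4 listed members were tested, and 2 of them fell from day 1 to day 6, where 4.46% of all tested genes did. CNTNAP2 (chromosome 2, 53294665 to 54190323, GRCg6a) encodes the protein that with contactin 2 gathers potassium channels beside the nodes of myelinated axons. Its level had a lowest, median and highest value of 99.4, 111 and 121 CPM on day 1, of 85.8, 94.99 and 111 CPM on day 3, and of 79.0, 84.4 and 92.1 CPM on day 6. Each library of day 6 was below each library of day 1, while day 3 overlapped both. Such separation of day 6 from day 1 held for 4 tested members (CNTNAP2, CDH18, PCDHAC2 and CNTN1), where it held for 6.2% of all tested genes. Days 3 and 6 were so separated for 0 members, where 5.76% of all tested genes were. The change from day 1 to day 6 was -0.35 ± 0.06 (SE, adjusted p = 0.000216), or 0.783 times the earlier level. The step from day 1 to day 3 was -0.18 ± 0.06 (adjusted p = 0.0909) and that from day 3 to day 6 was -0.18 ± 0.06 (adjusted p = 0.0274). With W transcripts as a covariate the change from day 1 to day 6 was -0.36 (adjusted p = 0.000215). Of 21 fits that each left out 1 library, 3 ended the call between day 3 and day 6, and 0 ended that between day 1 and day 6.

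CNTNAP4 is the only member on chromosome Z (42843431 to 43065951). Its product is a presynaptic protein of inhibitory interneurons in the mouse. It had a lowest, median and highest level of 8.86, 11.6 and 15.7 CPM on day 1, of 9.61, 14.2 and 16.3 CPM on day 3, and of 6.50, 7.75 and 10.7 CPM on day 6. Days overlapped, and within each day the libraries with W transcripts were all below those without. Hens have a single Z chromosome and cocks have a pair. On day 1 the 3 libraries without W transcripts stood at 14.7, 15.0 and 15.7 CPM, and the 4 with them at 8.86 to 11.6 CPM. On day 3 the 6 without stood at 12.6 to 16.3 CPM and the 1 with them at 9.61 CPM. On day 6 the 2 without stood at 10.6 and 10.7 CPM and the 5 with them at 6.50 to 7.86 CPM. Day 6 was thus below day 1 and day 3 among the libraries of either W state.

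**Figure D2:**
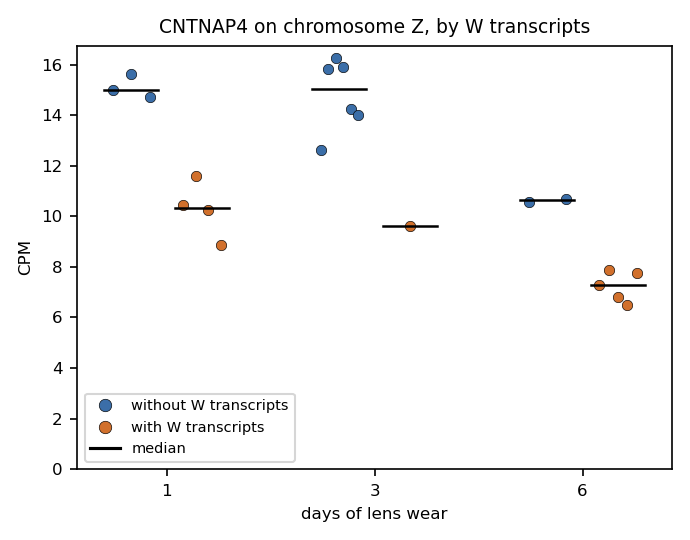
CPM of CNTNAP4 by days of lens wear, split into libraries without W transcripts (blue) and with them (orange), with 1 point per library and a line at the median. At day 6 the 2 libraries without W transcripts (10.6 and 10.7 CPM) and the 5 with them (6.50 to 7.86 CPM) each lie below the libraries of the same W state on days 1 and 3.

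With day in the fit, CNTNAP4 was lower in libraries with W transcripts, by a difference of -0.52 ± 0.06 (adjusted p = 4.92e-07). It was the 1 adhesion gene of 44 called lower, and 0 were called higher, where 5.38% of all tested genes were called in either direction, 4.06% lower and 1.32% higher. On chromosome Z 402 of 556 tested genes, 72.3%, were lower with W transcripts, with a median over the Z genes of -0.41. Between days, CNTNAP4 changed by 0.18 ± 0.13 from day 1 to day 3 (adjusted p = 0.501). It fell by 0.71 from day 3 to day 6 (SE 0.13, adjusted p = 0.00113) and by 0.53 from day 1 to day 6 (SE 0.13, adjusted p = 0.00741).

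W states were spread unevenly over the days. With W transcripts as a covariate the change of CNTNAP4 from day 3 to day 6 was -0.41 ± 0.07 (adjusted p = 0.000664), and from day 1 to day 6 it was -0.46 ± 0.06 (adjusted p = 4.54e-05). In that fit 32 of 556 Z genes, 5.76%, were lower on day 6 than on day 3, against 100 (18.0%) without the covariate. CNTNAP4 lay near the low end of the Z genes, since 9 of them had a lower estimate from day 3 to day 6 and 8 from day 1 to day 6. Over all members, 4 rose and 5 fell from day 3 to day 6 with the covariate, where 18.0% of all genes were called higher and 3.4% lower. The 4 were not all those called without it. CDH11 and PCDHAC2 were no longer called (adjusted p = 0.0709 and 0.088), while CDH20 (adjusted p = 0.0406) and 1 type I cadherin were. Among the 5 was 1 clustered protocadherin not called without the covariate. Between days 1 and 6, 4 rose and 4 fell, where 21.9% were called higher and 5.2% lower. Within libraries without W transcripts the change of CNTNAP4 from day 1 to day 6 was -0.47 ± 0.11 (adjusted p = 0.0334), and within those with them it was -0.45 ± 0.08 (adjusted p = 0.00168). In these subsets 2 and 6 members were called from day 1 to day 6, where 2.42% and 15.3% of all genes were. From day 3 to day 6 among libraries without W transcripts it was 1 member, where 6.43% of all genes were called. The difference between the 2 estimates for CNTNAP4 was 0.02 ± 0.14. In limma's test of that difference 0 adhesion genes were called, where 0.0% of all genes were. An unadjusted p under 0.05 was found for 0 adhesion genes and for 3.39% of all tested genes.

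The other contactin-associated proteins were not called. CNTNAP5 is a further neuronal member of the family. It had a lowest, median and highest level of 73.5, 77.8 and 91.3 CPM on day 1, of 65.9, 72.3 and 85.6 CPM on day 3, and of 65.96, 78.3 and 80.5 CPM on day 6. These ranges overlapped throughout, and the change from day 1 to day 6 was -0.07 ± 0.06 (adjusted p = 0.415). CNTNAP1, part of the junction between myelin and axon at the node, changed by -0.02 ± 0.13 (adjusted p = 0.937).

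All 6 contactins were tested, and on the deposited scale CNTN4 alone was called, where the F test called 29.7% of all tested genes. After median-of-ratios scaling CNTN4 was not called, and 2 others, CNTN1 and CNTN6, were called lower on day 6 than on day 1. In that comparison 8.93% of all tested genes were called lower. CNTN4 (chromosome 12, 18230735 to 18488409) guides ganglion cell axons to their brain target in the mouse, together with APP. Its lowest, median and highest levels were 16.1, 18.2 and 21.4 CPM on day 1, 14.5, 17.5 and 21.5 CPM on day 3, and 19.5, 20.9 and 22.4 CPM on day 6. A single library of day 3 reached into the day 6 range. The rise from day 3 to day 6 was 0.26 ± 0.07 (adjusted p = 0.0106), and from day 1 to day 6 the change was 0.17 ± 0.07 (adjusted p = 0.0779). After median-of-ratios scaling the change from day 3 to day 6 was 0.18 and was not called (adjusted p = 0.0765). APP, named here after its values were seen, rose by 0.25 ± 0.07 from day 3 to day 6 (adjusted p = 0.0134). It was not called after scaling (0.16, adjusted p = 0.0611). Of 13 tested contactin partners 2 were called higher in that comparison, where 19.4% of all tested genes were.

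CNTN1, a partner of the receptor phosphatase PTPRZ1 and of neurofascin, had a lowest, median and highest level of 229.97, 235 and 251 CPM on day 1, of 198, 232 and 248 CPM on day 3, and of 207, 219 and 229.88 CPM on day 6. Day 6 lay just below day 1 without overlap. The change was small at -0.10 ± 0.05 and was not called (adjusted p = 0.126), although after median-of-ratios scaling it was called at -0.19 (adjusted p = 0.0347). CNTN2, the axonal contactin that pairs with CNTNAP2, stood at a lowest, median and highest level of 3.81, 6.24 and 8.64 CPM on day 1, of 4.52, 4.79 and 6.51 CPM on day 3, and of 4.13, 4.72 and 6.41 CPM on day 6. All 3 days overlapped, and its change from day 1 to day 6 was -0.20 ± 0.12 and was not called (adjusted p = 0.228). The 95% interval of that change, -0.44 to 0.05, held both no change and the -0.35 of CNTNAP2. Whether CNTN2 fell along with CNTNAP2 therefore cannot be decided from these libraries. CNTN3, CNTN5 and CNTN6 were not called on the deposited scale either.

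Of the 12 type II cadherins 11 were tested. Of these 2, CDH18 and CDH12, differed over the 3 days, where 29.7% of all tested genes did. CDH18 (chromosome 2, 74188539 to 74446631) is a neuronal type II cadherin. Its lowest, median and highest levels were 146, 168 and 176 CPM on day 1, 172, 203 and 209 CPM on day 3, and 183, 196 and 205 CPM on day 6. Day 6 lay wholly above day 1, and on day 3 a single library, the one with W transcripts, fell within the day 1 range. The rise from day 1 to day 3 was 0.27 ± 0.05 (adjusted p = 0.00357), or 1.21 times the day 1 level, and CDH18 was the only member called in that comparison. From day 3 to day 6 it changed by -0.02 ± 0.05 (adjusted p = 0.819), and from day 1 to day 6 it rose by 0.25 ± 0.05 (adjusted p = 0.00142). Leaving out any 1 of the 21 libraries ended neither call.

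CDH12 (chromosome 2, 72977858 to 73388002), also called N-cadherin 2, is separated from CDH18 by 1 listed gene. It had a lowest, median and highest level of 45.8, 48.1 and 53.9 CPM on day 1, of 52.0, 53.7 and 58.6 CPM on day 3, and of 44.7, 47.9 and 52.7 CPM on day 6. On day 3, 3 of 7 libraries were above every library of both other days, and the other 4 lay within the day 1 range. From day 3 to day 6 CDH12 fell by 0.19 (SE 0.05, adjusted p = 0.0137), and day 6 differed from day 1 by -0.05 ± 0.05 (adjusted p = 0.498).

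CDH7 is a type II cadherin that in the chick embryo marks migrating neural crest cells and subsets of neurons. It had a lowest, median and highest level of 28.9, 31.4 and 33.5 CPM on day 1, of 33.8, 34.9 and 39.5 CPM on day 3, and of 29.6, 33.9 and 37.6 CPM on day 6. Day 3 lay above day 1 without overlap, which held for 1.54% of all tested genes in either direction between these days. The change was 0.17 ± 0.05 and did not pass the threshold (adjusted p = 0.0855).

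CDH10 and CDH11 were called in 1 comparison each, and weakly, and neither passed the F test (adjusted p = 0.0536 and 0.0813). CDH10 had a lowest, median and highest level of 24.1, 29.9 and 31.5 CPM on day 1, of 26.2, 30.2 and 33.4 CPM on day 3, and of 30.3, 33.2 and 38.4 CPM on day 6. It rose by 0.22 ± 0.07 from day 1 to day 6 (adjusted p = 0.0318), and 4 of 21 single-library omissions ended the call. CDH11, a cadherin of mesenchyme that neurons also make, had levels of 39.6, 46.4 and 54.7 CPM on day 1, of 42.0, 43.5 and 50.8 CPM on day 3, and of 46.5, 51.1 and 55.002 CPM on day 6. Its rise from day 3 to day 6 was 0.18 ± 0.07 (adjusted p = 0.0471), and 13 of 21 omissions ended that call. Neither was called after median-of-ratios scaling (adjusted p = 0.239 and 0.407).

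CDH20 and CDH22 did not pass the F test (adjusted p = 0.0915 and 0.0839). CDH20 had a lowest, median and highest level of 5.42, 6.88 and 7.82 CPM on day 1, of 6.00, 6.51 and 7.19 CPM on day 3, and of 6.57, 7.34 and 8.28 CPM on day 6. Its change from day 3 to day 6 was 0.16 ± 0.06 (adjusted p = 0.0548), and with W transcripts as a covariate it was called at 0.20 (adjusted p = 0.0406). CDH22 had levels of 8.45, 10.2 and 13.3 CPM on day 1, of 6.60, 9.26 and 9.86 CPM on day 3, and of 7.27, 8.41 and 9.89 CPM on day 6. Its change from day 1 to day 6 was -0.23 ± 0.09 (adjusted p = 0.0726), and it was called after median-of-ratios scaling (-0.31, adjusted p = 0.0104).

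Of the tested type II cadherins, 8 lie on chromosome 2. CDH20, CDH6, CDH9, CDH10, CDH12 and CDH18 follow each other there with 1 to 4 listed genes between neighbours, and CDH19 and CDH7 are adjacent further along. The summed level of these 8 genes was 313 to 342 CPM on day 1, 356 to 384 CPM on day 3 and 352 to 391 CPM on day 6. Days 3 and 6 were above day 1 without overlap. Of single tested genes 1.54% were so separated between days 1 and 3, and 6.2% between days 1 and 6, in either direction. Without CDH18 the other 7 genes summed to 157 to 176 CPM on day 1, 172 to 184 CPM on day 3 and 166 to 189.95 CPM on day 6, and the days overlapped. Single genes of the run differed between day 3 and day 6, when CDH12 fell while the estimate of CDH10 was 0.17 (adjusted p = 0.0957).

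Of the 4 listed type I cadherins 3 were tested, and 0 were called with day alone in the fit, where the F test called 29.7% of all tested genes. With W transcripts as a covariate 1 was called higher on day 6 than on day 3, as were 18.0% of all tested genes. CDH2 (N-cadherin) forms the adherens junctions that join Müller glia and photoreceptors at the outer limiting membrane. Its lowest, median and highest levels were 46.9, 51.3 and 54.9 CPM on day 1, 49.4, 51.3 and 57.3 CPM on day 3, and 50.7, 52.9 and 57.5 CPM on day 6. The ranges overlapped, with 6 of 7 libraries of day 6 above the mean of day 1. The change from day 1 to day 6 was 0.07 ± 0.05 (adjusted p = 0.282), with a 95% interval of -0.03 to 0.16. CDH4 (R-cadherin), first described in the chick retina, had levels of 14.1, 18.1 and 22.9 CPM on day 1, of 13.6, 15.6 and 18.6 CPM on day 3, and of 15.3, 17.3 and 19.3 CPM on day 6. Its change from day 1 to day 6 was -0.06 ± 0.09 (adjusted p = 0.649), with a 95% interval of -0.25 to 0.13.

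CDH1 (E-cadherin, of epithelia) and CDH5 (VE-cadherin, of blood vessel lining) were close to absent. CDH1 ranged from 0 to 0.215 CPM on day 1, from 0 to 0.0846 CPM on day 3 and from 0 to 0.0588 CPM on day 6, with medians of 0.0513, 0.0725 and 0 CPM. CDH5 ranged from 0 to 0.138 CPM on day 1, from 0 to 0.338 CPM on day 3 and from 0 to 0.280 CPM on day 6, with medians of 0.0247, 0 and 0.0294 CPM. CDH1 was at 0 in 7 libraries and CDH5 in 10. The bird retina has no blood vessels of its own. Of the 7 endothelial markers (CDH5 included), KDR had a mean of 35.5 CPM and PECAM1 of 17.3 CPM, and the other 5 had means of 0.0131 CPM (CLDN5) to 0.428 CPM (TEK). Their sum ran from 41.9 to 66.8 CPM over the 21 libraries, and KDR and PECAM1 were not called between days.

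The atypical members PCDH15 and CDH23 form the extracellular links of hair bundles in the ear, and their loss causes Usher syndrome, which joins deafness with retinal degeneration. PCDH15 had a lowest, median and highest level of 47.3, 55.3 and 64.1 CPM on day 1, of 43.1, 49.8 and 56.4 CPM on day 3, and of 47.4, 52.9 and 72.7 CPM on day 6. CDH23 had levels of 1.32, 1.58 and 2.56 CPM on day 1, of 1.28, 1.61 and 1.95 CPM on day 3, and of 1.31, 1.74 and 1.91 CPM on day 6. Days overlapped for both genes, and from day 1 to day 6 they changed by -0.02 ± 0.09 (adjusted p = 0.914) and -0.03 ± 0.09 (adjusted p = 0.834). Of 8 other tested genes of the Usher complex, 3 rose from day 1 to day 6 and 0 fell. The shares of all tested genes were 19.8% and 4.46%. Among the 3, MYO7A, a motor protein, rose by 0.47 ± 0.07 (adjusted p = 0.00017), and PDZD7, a scaffold, by 0.43 ± 0.08 (adjusted p = 0.00103).

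All 9 delta protocadherins were tested, and 2 differed over the 3 days, both downward, where 29.7% of all tested genes differed. PCDH10 (chromosome 4, 26880413 to 26919650) and PCDH17 (chromosome 1, 164777980 to 164865040) encode proteins that bind the WAVE complex, a regulator of actin. PCDH10 had a lowest, median and highest level of 85.5, 97.8 and 105 CPM on day 1, of 83.3, 87.1 and 100.05 CPM on day 3, and of 73.2, 79.8 and 85.9 CPM on day 6. A single library of day 1 and a single library of day 6 met at the edge of the ranges. PCDH10 fell by 0.27 from day 1 to day 6 (SE 0.06, adjusted p = 0.00145), to 0.827 times the day 1 level. It fell by 0.16 from day 3 to day 6 (SE 0.06, adjusted p = 0.0406), a call that 9 of 21 omissions ended. A listed gene on the opposite strand overlaps 12 of the 55 members, among them PCDH10, CNTNAP2, CNTNAP5, CDH11, CDH20, CDH23 and PCDH15. The libraries were stranded, but the sources used here do not say whether counting used the strand, so reads of such pairs cannot be told apart.

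PCDH17 had a lowest, median and highest level of 179, 200.4 and 215 CPM on day 1, of 146, 183 and 189 CPM on day 3, and of 164, 174 and 192 CPM on day 6. Days 3 and 6 shared a range and lay mostly below day 1. The change was -0.16 ± 0.06 from day 1 to day 3 (adjusted p = 0.121) and -0.19 ± 0.06 from day 1 to day 6 (adjusted p = 0.0167). In contrast, PCDH11X and PCDH9 had the smallest spreads of the members at 20 CPM or more. Over all 21 libraries the highest value of PCDH11X was 1.16 times its lowest, and that of PCDH9 1.17 times. The median of this ratio was 1.39 over 24 such members and 1.43 over 3560 genes of that level.

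PCDH20 (chromosome 1, 163198027 to 163204709), a non-clustered protocadherin outside the delta group, lies between PCDH9 and PCDH17. Its lowest, median and highest levels were 19.0, 24.2 and 27.6 CPM on day 1, 20.02, 22.7 and 24.5 CPM on day 3, and 24.2, 27.7 and 30.9 CPM on day 6. Day 6 overlapped day 3 at the edge and day 1 more widely. The rise from day 3 to day 6 was 0.28 ± 0.08 (adjusted p = 0.013), which after median-of-ratios scaling was 0.19 (adjusted p = 0.0955). PCDH17 in the same run moved the other way, downward from day 1 to day 6.

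**Figure D3:**
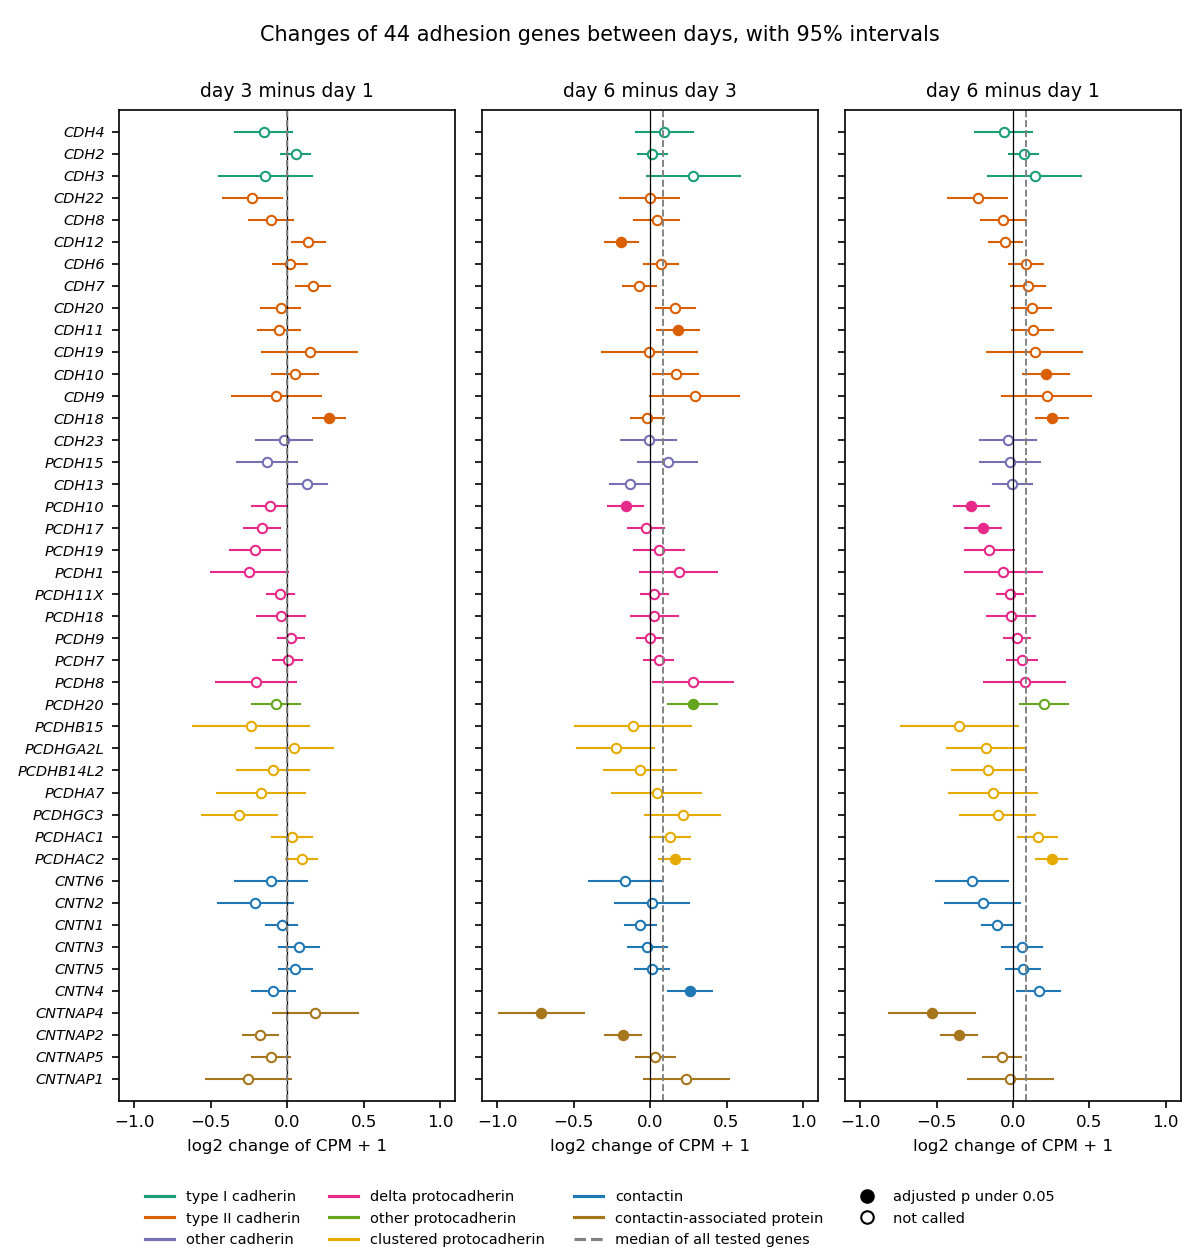
Log2 change of CPM + 1 for the 44 tested adhesion genes between each pair of days, grouped and coloured by role, with 95% intervals, filled points where the adjusted p was under 0.05, and a dashed line at the median of all tested genes. The intervals of 43, 42 and 42 genes lie within a 1.5-fold change of CPM + 1 in the 3 comparisons. CNTNAP4 is the point farthest to the left after day 6.

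Of the 14 clustered protocadherins on chromosome 13, 7 were tested and 1 was called, where the F test called 29.7% of all tested genes. PCDHAC2 (1336006 to 1378955) encodes the C-type isoform that carries the last variable exon of the alpha cluster. It had a lowest, median and highest level of 43.5, 47.3 and 48.1 CPM on day 1, of 44.3, 50.5 and 52.6 CPM on day 3, and of 51.6, 54.4 and 59.2 CPM on day 6. Day 6 was above day 1 without overlap. PCDHAC2 rose by 0.25 ± 0.05 from day 1 to day 6 (adjusted p = 0.00112). It rose by 0.16 ± 0.05 from day 3 to day 6 (adjusted p = 0.0242), and that call ended with W transcripts as a covariate (0.13, adjusted p = 0.088) and after median-of-ratios scaling (0.07, adjusted p = 0.296).

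The 8 listed genes of the alpha cluster overlap on 1 strand, and those that reach the shared end have the same lower coordinate. The sources used here do not say how reads of the shared exons were divided among them, so the level of a single isoform is uncertain. The sum over the 8 genes does not depend on that division among them. It had medians of 70.2 CPM on day 1, 74.5 CPM on day 3 and 81.9 CPM on day 6. The 66.2 to 74.0 CPM of day 1 did not overlap the 75.05 to 88.9 CPM of day 6. Of single tested genes 6.2% were so separated in either direction. PCDHAC2, separated by itself, made up most of the sum. The sum was not rescaled or tested, while the median change of all tested genes between these days was 0.08. PCDHAC1, the neighbouring C-type isoform, changed by 0.16 from day 1 to day 6 and was not called (adjusted p = 0.0619). The 6 clustered genes outside the alpha cluster summed to 47.4 to 83.2 CPM on day 1 and 45.8 to 62.5 CPM on day 6, ranges that overlapped. Among them PCDHGA2L and PCDHGC3 were the most variable members at 20 CPM or more, with highest-to-lowest ratios of 2.19 and 2.03 over the 21 libraries.

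The 11 members under the 1 CPM limit had means of 0.00836 to 0.965 CPM and no value above 1.49 CPM. They were CDH1, CDH5, CDH17, PCDH12, PCDHA2, PCDHA4, PCDHA11, PCDHA12, PCDHA13, PCDHB4P and PCDHGA2.

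**Figure D4:**
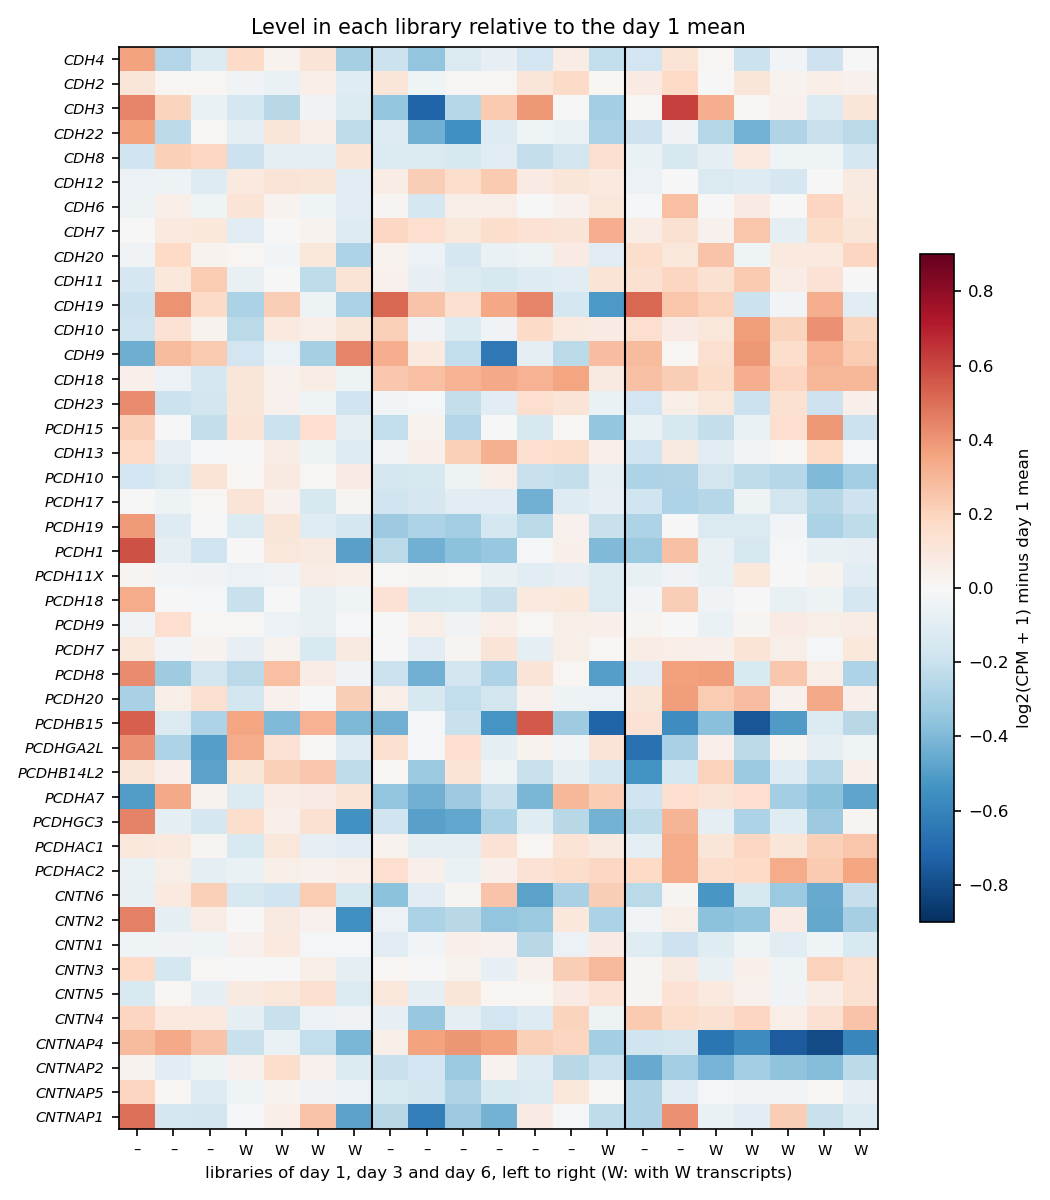
Level of each tested adhesion gene (rows, ordered as by role) in each library (columns, days 1, 3 and 6 separated by lines, W for libraries with W transcripts), as log2(CPM + 1) minus the day 1 mean, in colour from blue (lower) to red (higher). Values run from -0.81 for CNTNAP4 on day 6 to 0.62 for CDH3 on day 6, and most rows are pale, with CDH18 red across days 3 and 6 and CNTNAP2 and PCDH10 blue across day 6.

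Most members changed little in CPM + 1, a scale that shrinks changes in the CPM of genes near 1 CPM. The 95% interval on that scale lay within 1.5-fold either way for 43 of 44 members from day 1 to day 3 (97.7%). It did so for 42 from day 3 to day 6 and for 42 from day 1 to day 6 (95.5% each). Among all tested genes the shares were 93.8%, 89.6% and 90.6%. The genes whose intervals reached further were CNTNAP4 and the low-level PCDHB15 and CDH3. The tested members span a median of 93.96 kb on the genome, beside 19.9 kb for all tested genes.

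A median-of-ratios scaling, which sets the typical gene to no change, moved the median of all tested genes from 0.08 to 0.01 in both comparisons with day 6. Under it 0 members rose and 5 fell from day 3 to day 6, where 8.54% of all genes were called higher and 7.88% lower. Between days 1 and 6, 2 rose and 8 fell, where 8.47% were called higher and 8.93% lower. CDH18 and PCDHAC2 remained called higher on day 6 than on day 1, by 0.16 each (adjusted p = 0.0235 and 0.0222). CNTNAP2, CNTNAP4, PCDH10 and PCDH17 remained called lower, and CDH22, PCDH19, CNTN1 and CNTN6 joined them.

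Genes whose products work with these receptors were read against the same background, 19.4% called higher and 3.44% lower from day 3 to day 6, and 19.8% and 4.46% from day 1 to day 6. Of 9 tested catenins and linkers 1 rose from day 3 to day 6, plakoglobin (JUP), by 0.42 ± 0.12 (adjusted p = 0.0158). PKP4 rose by 0.18 ± 0.05 from day 1 to day 6 (adjusted p = 0.0147), and was not called after median-of-ratios scaling (0.09, adjusted p = 0.166). Beta-catenin (CTNNB1), a catenin that helps tie classical cadherins to actin, changed by -0.02 ± 0.05 from day 1 to day 6 (adjusted p = 0.81). Of 13 tested members of the wider cadherin superfamily 2 rose from day 3 to day 6. CELSR1, a planar polarity cadherin, rose by 0.45 ± 0.07 (adjusted p = 0.000222) and CDHR1, a photoreceptor cadherin of the outer segment base, by 0.22 ± 0.07 (adjusted p = 0.0376), the latter not called after median-of-ratios scaling (0.13, adjusted p = 0.191). From day 1 to day 6 CLSTN3, a postsynaptic calsyntenin, rose by 0.31 ± 0.08 (adjusted p = 0.0095).

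Among 13 tested contactin partners the potassium channel gene KCNA2 rose by 0.40 ± 0.08 from day 3 to day 6 (adjusted p = 0.00179). The receptor phosphatase PTPRG, which binds several contactins, fell by 0.21 from day 1 to day 6 (SE 0.05, adjusted p = 0.00377). All 4 laminar immunoglobulin genes were tested, and 3 of them rose from day 3 to day 6, where 19.4% of all tested genes did. SDK2 rose by 0.75 ± 0.16 (adjusted p = 0.00209), DSCAML1 by 0.44 ± 0.12 (adjusted p = 0.0123) and SDK1 by 0.29 ± 0.07 (adjusted p = 0.0091). Of 3 nectin genes, NECTIN3 and its linker AFDN rose from day 3 to day 6, by 0.27 ± 0.07 (adjusted p = 0.0123) and 0.13 ± 0.04 (adjusted p = 0.0276), and neither was called after scaling (adjusted p = 0.105 and 0.6). Of 4 tested genes for cadherin cleavage, PSEN2 rose by 0.14 from day 1 to day 6 and was not called after scaling (0.05, adjusted p = 0.537). Of 3 tested neurexin and neuroligin genes 0 were called in any comparison between days.

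Markers of retinal cell types moved over the same days. From day 1 to day 6, 3 of 7 cone markers rose and 2 fell. That compares with 19.8% and 4.46% of all tested genes. Of 6 amacrine and 4 Müller glia markers 0 were called between days on the deposited scale with day alone in the fit. After median-of-ratios scaling 3 amacrine markers, GAD1, GAD2 and TFAP2A, were lower on day 6 than on day 1. So were 3 of 4 tested bipolar markers, VSX1, TRPM1 and PRKCA, and 8.93% of all tested genes. With W transcripts as a covariate CHAT and GLUL were higher on day 6 than on day 3, and GAD1 and SLC1A3 were lower. Of all tested genes 18.0% were called higher and 3.4% lower in that fit. The summed cone markers ran from 674 to 956 CPM on day 1 and from 770.2 to 1203 CPM on day 6. In a whole retina fewer cells of a type and less RNA per cell cannot be told apart, and the part of such shifts in the changes of the adhesion genes was not tested.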

How the data were processed

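The deposited table gives CPM made by the authors for 18631 genes in 21 libraries, with 0.0001 added to each value, which was subtracted. Per the submitters' processing notes STAR, Partek and genome build GRCg6a were used, and the sources used here give no versions or settings. Per the labels' protocols, libraries came from a stranded kit with ribosomal RNA removed. The listed genes made up 30.7 to 31.2% of the CPM scale on day 1 and 30.3 to 32.2% on day 3. On day 6 they made up 31.7 to 33.3%, above day 1 without overlap. Some values (30 to 62 per library) lay below the step of 1 read (0.0203 to 0.0324 CPM), so reads were partly split between genes, whole reads were not recovered and no count test was run. Read totals were estimated from that step. Coordinates follow the table, which does not state its numbering base.

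A single limma fit (version 3.58.1 under R 4.3.3, eBayes without trend or robust settings) to log2(CPM + 1) gave 1 mean per day over 21 libraries. It covered the 11072 genes whose mean reached 1 CPM, and Benjamini-Hochberg adjustment ran over all of them. W state (HINTW above 10 CPM) entered as a covariate, or with 1 mean per day and W state. Comparisons between days share libraries. The procedure was tested on simulated data.

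Members, gene lists and the choice of genes named were made with earlier results of these data known. Values per day are given for 23 members: the 14 with the lowest F test p, those on chromosome Z and some fixed by name. From partner lists up to 3 called genes and CTNNB1 are named, and APP beside CNTN4 was added after its values were seen. Of the members 48 matched a RefSeq symbol. No sequences are shown. Some genes of the marker and partner lists are not reported here. Tables and figures used Python 3.11.15, numpy 2.4.6, pandas 2.3.3, scipy 1.17.1 and matplotlib 3.10.9. The alternatives tried were pseudocount 0.1, no filter, a stricter filter (mean of 5 CPM), median-of-ratios scaling and eBayes with trend. Also tried were code range and W state as covariates, each W state alone, and each library left out. The code range covariate set the lower code numbers of each day against the higher ones. It assumed that such ranges match between days, which the labels do not state.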

Additional observations from a re-analysis of the deposited data

Results flagged for a closer look

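Among 69 sets of 7 libraries, 23 members on 3 days, 5 had a single library far from the others by Dixon's criterion at the 95% level, and chance gives about 1 in 20. PCDH17 stood at 146 CPM in replicate 6 of day 3, with the next library at 175 CPM. CDH7 stood at 39.5 CPM in replicate 4 of day 3, the only library of that day with W transcripts, with the next at 35.9 CPM. CDH23 stood at 2.56 CPM in replicate 4 of day 1, with the next at 1.85 CPM. CDH1 stood at 0.215 CPM in the same library, with the next at 0.0879 CPM. CDH5 stood at 0.338 CPM in replicate 1 of day 3, with the next at 0.0324 CPM, about the step of 1 read. In steps of 1 read these levels of CDH1 and CDH5 come to 8 and 12 reads.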

How the results depend on the processing

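No called change reversed its direction under any alternative. The counts of members called were 9 over the 3 days, 1 higher and 0 lower from day 1 to day 3, 4 and 4 from day 3 to day 6, 3 and 4 from day 1 to day 6, and 0 and 1 with W transcripts. After median-of-ratios scaling 0 were higher from day 3 to day 6 and 8 were lower from day 1 to day 6. With the stricter filter, a mean of 5 CPM, 5 were higher from day 1 to day 6. Among libraries without W transcripts 0 were higher and 1 lower from day 3 to day 6, and 1 higher and 1 lower from day 1 to day 6, with fewer libraries in these comparisons. The code numbers of day 1 fall into 2 ranges, and using each alone was chosen after seeing the data. With the 4 lower numbers alone 19 members differed over the 3 days, 4 were lower from day 1 to day 3, and 6 were higher and 9 lower from day 1 to day 6. With the 3 higher numbers alone 2 were higher and 1 lower from day 1 to day 3. The cause of these shifts was not tested. Shares of all tested genes are not given for the stricter filter, either range of code numbers or the single-library omissions. Whether all genes shifted alike there cannot be read from these counts. Between the ranges themselves 1 member, CDH9, differed, by 0.56 (adjusted p = 0.0356), and 12 had an unadjusted p under 0.05, where 3.18% and 24% of all genes did.

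Leaving out 1 library at a time gave 8 to 13 members over the 3 days, 0 to 1 lower and always 1 higher from day 1 to day 3, 2 to 5 higher and 2 to 4 lower from day 3 to day 6, 2 to 4 higher and 4 to 6 lower from day 1 to day 6, and 0 to 1 higher and 1 to 2 lower with W transcripts. The 2 higher from day 3 to day 6 came without replicates 2 or 3 of day 3 or replicates 4 or 7 of day 6, and the 2 lower without replicate 5 of day 3 or replicate 3 of day 6. The 1 lower from day 1 to day 3 came without replicate 6 of day 1 or replicate 5 of day 3. With W transcripts the 2 lower came without replicates 2 or 4 of day 1, 7 of day 3 or 5 of day 6, and the 1 higher without replicate 4 of day 1. Of the 17 calls of single members, scaling ended 5, the W covariate 2, the code range covariate 2 and no filter 1. The pseudocount, the stricter filter and the trend ended 0. With fewer libraries, 12 calls ended and 4 held among those without W transcripts, and 2 ended and 5 held among those with them. Of the calls against day 1, the 3 higher code numbers alone ended 2 and left 6, and the 4 lower left 8 of 8. From day 1 to day 6 PCDH17 was called in neither W state (adjusted p = 0.234 without W transcripts and 0.0846 with them). CDH10 was likewise called in neither (adjusted p = 0.628 and 0.0679). Against the 3 higher code numbers of day 1 alone, the change of CDH10 was 0.13 (adjusted p = 0.315). That of PCDH17 was -0.19 (adjusted p = 0.085). The calls of CDH18, CNTNAP4, CDH12, CNTN4, PCDH17 and PCDH20 each held in all 21 omissions. No paired analysis was possible because code numbers are not shared between days. Depth limits what can be said of the members under 1 CPM, where 1 read is 0.0203 to 0.0324 CPM.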

Other observations

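Replicate 4 of day 1 held the highest value of its day for 20 of the 44 tested members, more than any other library of the 21 held on its own day. The next were replicate 7 of day 6 with 15 and replicate 7 of day 3 with 10. Without replicate 4 of day 1, 9 members differed over the 3 days and 3 were higher and 4 lower on day 6 than on day 1. The call of CDH10 from day 1 to day 6 ended in that fit, so the 3 higher members were not all the same.

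Across the 44 tested members, genes with a longer span on the genome had somewhat higher changes from day 1 to day 3, with a Spearman rho of 0.40, beside -0.06 over all 11072 tested genes. From day 3 to day 6 rho was -0.21 for the members and -0.09 for all genes. These values describe genes that share the same libraries, and no test was made of them.

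ADGRV1, the large adhesion receptor of the Usher complex, lies on chromosome Z like CNTNAP4 and was lower with W transcripts by -0.75 (adjusted p = 4.36e-08). Between days it was not called with day alone in the fit, while with W transcripts as a covariate it rose by 0.26 from day 1 to day 6 (adjusted p = 0.0146).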
